A study of Sus scrofa with 8 samples.

Results

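The 10 genes described here encode the vasoconstrictor peptide endothelin 1, the enzyme that activates it and its receptors (EDN1, ECE1, EDNRA, EDNRB), the nitric oxide synthases (NOS1, NOS2, NOS3), the subunits of soluble guanylate cyclase (GUCY1A3, GUCY1B3) and a phosphodiesterase that breaks down cyclic GMP (PDE5A). They were taken by gene name from a table of 18975 genes that gives RNA levels in pig heart, and all 10 were found. Heart RNA came from 6-month-old pigs of 2 breeds at 2 altitudes, labelled male: Tibetan pigs raised at 3000 m (TH), Tibetan pigs raised at 100 m (TL), Yorkshire pigs raised at 3000 m (YH) and Yorkshire pigs raised at 100 m (YL). Each group has 2 libraries, TH1 and TH2 and so on, and each library was made from the pooled RNA of 4 pigs, so that the spread between libraries is that of pools and not of animals. The highland and the lowland animals were kept at different places, so altitude and place cannot be told apart. Levels are FPKM, the fragments scaled to the exon length and to the number mapped, which correct for gene length and can be compared between genes.

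Endothelin 1 is made as a longer precursor, largely by endothelial cells, and is cut to its active form by the converting enzyme ECE1. It contracts vascular smooth muscle through the receptor EDNRA, whereas EDNRB on endothelial cells clears the peptide and triggers the release of nitric oxide. Nitric oxide, made from arginine by the synthases, activates guanylate cyclase in smooth muscle, and the cyclic GMP formed there relaxes the vessel until a phosphodiesterase degrades it. Both systems set vascular tone in the heart and lung and are studied in the response to low oxygen.

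Between 15686782 and 26722454 reads per library fell on genes. The tissue label was checked with 8 ventricular cardiomyocyte markers, whose summed level was 13411 FPKM in YL2 and between 20046 and 36004 FPKM in the other libraries, with none at 0. A set of 17 kidney markers summed to 5074 FPKM in YL2 against 2.75 to 20.2 FPKM elsewhere, where 2 to 10 of them were listed at 0. A set of 7 atrial cardiomyocyte markers summed to 6796 and 5573 FPKM in TH1 and TH2 and to 457.6 to 2852 FPKM elsewhere. NPPA and MYL7 made up most of this sum in TH. Both TH libraries were above both TL libraries for 4 of the 7 and below them for 2, one of them MYH6. The part of atrial tissue in the TH values was not tested. TH1 had the largest share of its reads on the mitochondrial genome, 47.8%, against 26.6% to 45.3% in the others, and was the lowest library for 25.8% of the 11913 genes tested and the highest for 25.0%. Fold changes of single members that YL2 or TH1 moves by more than 1.5 times are therefore given without that library as well.

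EDNRA was the most abundant member with a mean of 36.0 ± 8.49 FPKM (SD, n = 8 libraries), above 92.0% of the listed genes. ECE1 followed at 17.4 ± 5.91 FPKM, GUCY1B3 at 7.64 ± 1.99 and NOS3 at 5.21 ± 1.67 FPKM. NOS2 and EDNRB lay close together at 2.51 ± 1.35 and 2.48 ± 1.252 FPKM, ahead of EDN1 at 1.55 ± 0.390 and GUCY1A3 at 1.28 ± 0.478 FPKM. PDE5A, at 0.367 ± 0.204 FPKM, and NOS1, at 0.0125 ± 0.0141 FPKM, did not reach 1 FPKM in any library and were not tested. The other 8 members had at least 1 FPKM in at least 2 libraries and were tested.

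**Figure D1:**
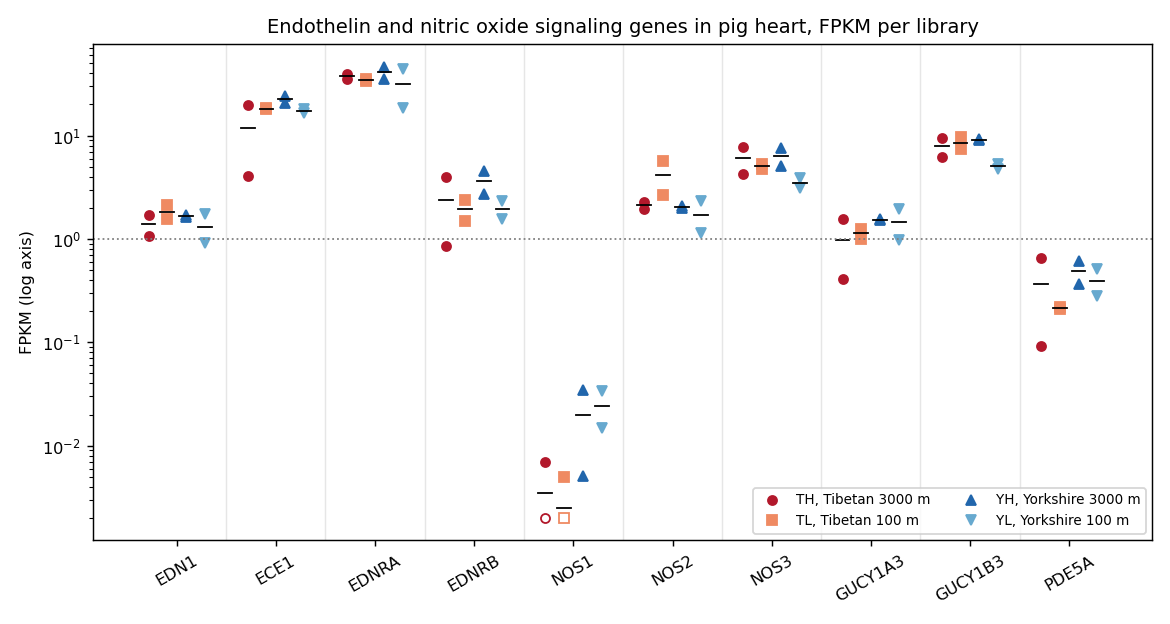
FPKM of the 10 genes in each of the 8 libraries on a log axis, with 1 symbol per library and a short line at the mean of the 2 libraries of a group. The dotted line marks 1 FPKM and open symbols at the lower edge stand for libraries in which NOS1 was listed at 0. EDNRA lies highest, at 18.5 to 46.5 FPKM, and NOS1 lowest, at 0.0342 FPKM or less.

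The ligand gene EDN1 (ENSSSCG00000001050, Sscrofa10.2 chr7:9152652-9159251) was low in every library. Its level was 1.70 and 1.08 FPKM in TH1 and TH2, 1.54 and 2.14 FPKM in TL1 and TL2, 1.65 and 1.69 FPKM in YH1 and YH2, and 1.73 and 0.905 FPKM in YL1 and YL2. The groups overlapped in every pair, and the lowest and highest library, YL2 and TL2, were 2.36-fold apart. This spread is ordinary for the data, as 55.6% of the tested genes with a value in every library had a larger fold between their highest and lowest library. Between 42 and 114 reads per library lay behind these values. The largest pairwise difference of EDN1 was TL to YL, a log2 fold change of 0.31 ± 0.27 (SE, limma adjusted p = 0.769), which was 0.05 without YL2.

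ECE1 (ENSSSCG00000003513, chr6:73662020-73717839), whose membrane-bound product cleaves the endothelin precursor, had 1 library far from the rest. TH1 was at 4.10 FPKM, and the other 7 libraries lay between 16.4 and 24.4 FPKM, with TH2 at 19.8, TL1 at 17.9, TL2 at 18.5, YH1 at 20.5, YH2 at 24.4, YL1 at 16.4 and YL2 at 17.9 FPKM. TH1 had the most reads on genes of the 8 libraries, and 209 of them lay on ECE1, against 784 to 1954 in the others. TH1 was the lowest library by a factor of at least 4 for 1.43% of all genes tested, and ECE1 is one of these. Both TH libraries lay below both YH libraries, with a log2 fold change of -1.18 ± 0.58 (95% interval -2.56 to 0.20, adjusted p = 0.373). This difference was -0.17 without TH1 and -2.20 without TH2 (adjusted p = 0.0419), so that 1 library decides it. The last p rests on TH1 as the sole TH library, which is assumed to vary like the libraries of the other groups.

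EDNRA (ENSSSCG00000009031, chr8:86290712-86319741), the receptor through which endothelin contracts smooth muscle, was at 39.5 and 35.3 FPKM in TH1 and TH2, 35.1 and 33.7 FPKM in TL1 and TL2, 46.5 and 35.2 FPKM in YH1 and YH2, and 44.2 and 18.5 FPKM in YL1 and YL2. YL2 was the lowest library and the other 7 lay between 33.7 and 46.5 FPKM. YL2 was the lowest by a factor of at least 1.5 for 5.37% of all genes tested. Summed pericyte markers, 6 genes of the mural cells that surround small vessels, were also lowest in YL2, at 64.3 FPKM against 160.3 to 196.1 FPKM elsewhere. Gene by gene, 5 of the 6 were lowest in YL2 and RGS5 in TH1. Both YL libraries were below the other 6 for 3 of them, whereas EDNRA was at 44.2 FPKM in YL1. The summed ventricular cardiomyocyte markers were lowest in YL2 as well, at 13411 FPKM against 20046 to 36004 FPKM, and YL2 is the library with the kidney markers. The part of these cells in the EDNRA value was not tested. The largest pairwise difference of EDNRA was YH to YL, a log2 fold change of 0.48 ± 0.39 (adjusted p = 0.798), which was -0.12 without YL2 and 1.09 without YL1 (adjusted p = 0.0520), where YL2 alone stands for YL with the spread of the other groups. The FPKM of EDNRA in YH2 was 1.38 times as high for its reads as in the median library, and with recovered reads in place of FPKM the same difference was 0.15 in edgeR.

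EDNRB (ENSSSCG00000009477, chr11:54691945-54718001), which removes endothelin and signals nitric oxide release in endothelial cells, was much the scarcer receptor. It was measured at 0.860 and 3.93 FPKM in TH1 and TH2, 1.504 and 2.38 FPKM in TL1 and TL2, 4.57 and 2.71 FPKM in YH1 and YH2, and 2.34 and 1.57 FPKM in YL1 and YL2. The libraries of TH hold the lowest value and the second highest, and both YH libraries lay above both YL libraries. Only 27 to 156 reads per library support these levels. The YH to YL difference was a log2 fold change of 0.63 ± 0.48 (95% interval -0.50 to 1.77, adjusted p = 0.790), and 0.44 without YL2 or 0.34 without YH1. EDNRA exceeded EDNRB in every library, with a ratio of their FPKM of 13.6 at the median, 8.97 in TH2 and 45.9 in TH1.

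Of the synthases, NOS1 (ENSSSCG00000009856, chr14:37428595-37515630), the neuronal isoform, had 0, 1, 0 and 1 reads in TH1, TH2, TL1 and TL2 and 6, 1, 2 and 8 reads in YH1, YH2, YL1 and YL2. The 2 libraries without a read allow up to 0.112 RPM, the rate scaled to all reads on genes, in TH1 and 0.165 RPM in TL1, taking 3 reads as the limit. In YL2, the library with the most, the rate was 0.373 RPM (exact 95% interval 0.161 to 0.735), and these limits cover counting error only. NOS1 was thus near the limit of detection in whole heart at this depth.

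NOS2 (ENSSSCG00000017755, chr12:46022453-46053026), the inducible isoform known from macrophages and inflamed tissue, was highest in TL. Its level was 2.29 and 1.96 FPKM in TH1 and TH2, 5.68 and 2.66 FPKM in TL1 and TL2, 1.99 and 2.09 FPKM in YH1 and YH2, and 1.13 and 2.31 FPKM in YL1 and YL2. TL1 was 2.13 times the next library, TL2, which in turn lay above all libraries of the other groups. The difference of TL to YL was a log2 fold change of 0.90 ± 0.35 (95% interval 0.08 to 1.72, adjusted p = 0.507), which was 0.46 without TL1, 0.58 without YL1 and 1.22 without YL2. The libraries of TH also lay wholly below those of TL, by a log2 fold change of -0.67 ± 0.35 (adjusted p = 0.515), which was -0.23 without TL1 and -1.10 without TL2. The summed level of 6 macrophage markers was 108.2 and 114.6 FPKM in TL, 97.5 and 110.1 FPKM in YH, 94.4 and 66.0 FPKM in YL and 34.3 and 49.5 FPKM in TH. C1QA and C1QC, with means of 29.1 and 35.8 FPKM, make up most of this sum. Both TH libraries lay below both TL libraries for 3 of the 6 markers, whereas CD68 was higher in TH, at 5.39 and 5.95 FPKM, than in TL, at 2.89 and 2.60 FPKM, and CD163 was near 0 in every library. The part of these cells in the NOS2 values was not tested.

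NOS3 (ENSSSCG00000016450, chr18:6579250-6597271), the endothelial synthase, was the most abundant of the family in 7 of 8 libraries. It reached 4.25 and 7.78 FPKM in TH1 and TH2, 4.74 and 5.36 FPKM in TL1 and TL2, 5.02 and 7.55 FPKM in YH1 and YH2, and 3.88 and 3.11 FPKM in YL1 and YL2. In TL1 NOS2 stood above it, and the ratio of NOS3 to NOS2 went from 0.835 there to 3.97 in TH2. Both YL libraries were below the other 6. The YH to YL difference was a log2 fold change of 0.68 ± 0.31 (95% interval -0.06 to 1.42, adjusted p = 0.784), which was 0.56 without YL2 and 0.43 without YH2. The same contrast on recovered reads was 1.02 in edgeR (adjusted p = 0.499) and 1.01 in DESeq2 (adjusted p = 0.355).

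Soluble guanylate cyclase is a dimer of an alpha and a beta subunit. GUCY1A3 (ENSSSCG00000008866, chr8:46456919-46537331) and GUCY1B3 (ENSSSCG00000008870, chr8:46746537-46765486) lie 209205 bases apart on the same chromosome, and no other listed gene overlaps either locus. GUCY1A3 was at 0.408 and 1.55 FPKM in TH1 and TH2, 1.26 and 1.005 FPKM in TL1 and TL2, 1.52 and 1.56 FPKM in YH1 and YH2, and 0.977 and 1.96 FPKM in YL1 and YL2. TH1, with 25 reads, stood 2.40-fold below the next library. The log2 fold change of TH to YH was -0.42 ± 0.34 (adjusted p = 0.562) and turned to 0.0066 without TH1.

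GUCY1B3 was at 6.24 and 9.56 FPKM in TH1 and TH2, 9.63 and 7.37 FPKM in TL1 and TL2, 9.003 and 9.25 FPKM in YH1 and YH2, and 5.30 and 4.77 FPKM in YL1 and YL2. Both YL libraries were the lowest of the 8, and the 2 YH libraries lay close to each other. It exceeded GUCY1A3 in every library, by 2.44-fold in YL2 to 15.3-fold in TH1. The difference of YH to YL was a log2 fold change of 0.75 ± 0.25 (95% interval 0.15 to 1.34, adjusted p = 0.764), and that of TL to YL was 0.65 ± 0.25 (0.05 to 1.24, adjusted p = 0.513). Without YL2 they were 0.68 and 0.58. The interaction, which is the altitude difference of the Tibetan breed less that of the Yorkshire breed, was -0.86 ± 0.35 (adjusted p = 0.452), and -0.59 without TH1. In YH2 the FPKM of GUCY1B3 was 1.31 times as high for its reads as in the median library, and on recovered reads the YH to YL difference was 0.66 in edgeR (adjusted p = 0.530).

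PDE5A (ENSSSCG00000009106, chr8:111948591-112073066), the target of drugs against pulmonary hypertension, was at 0.0918 and 0.649 FPKM in TH1 and TH2, 0.212 and 0.218 FPKM in TL1 and TL2, 0.364 and 0.617 FPKM in YH1 and YH2, and 0.278 and 0.507 FPKM in YL1 and YL2. TH1, with 5 reads or 0.187 RPM (exact 95% interval 0.0608 to 0.437), was again the lowest. TH2, with 30 reads or 1.91 RPM (1.29 to 2.73), was the highest. The 2 libraries of TH were thus further apart than the means of any 2 groups.

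**Figure D2:**
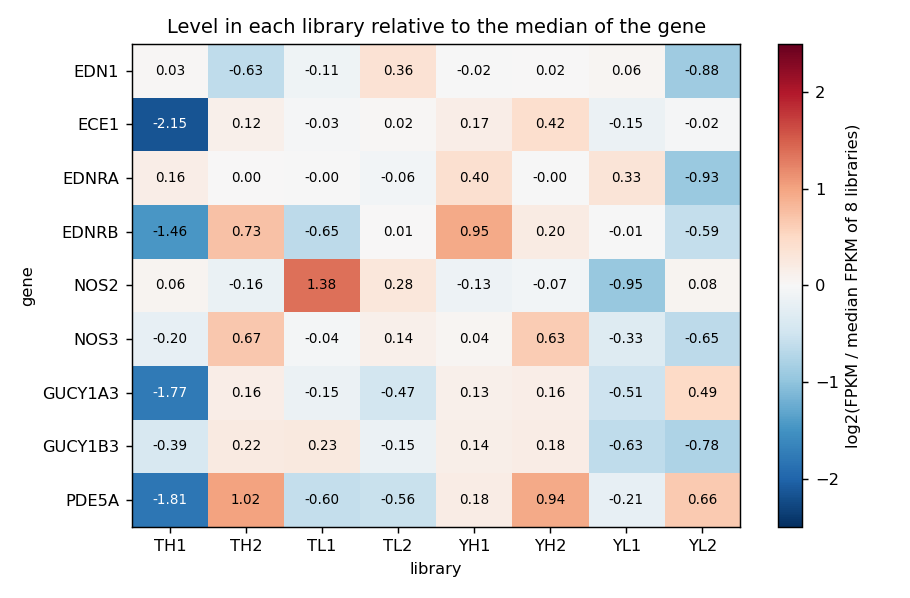
Level of each gene in each library as log2 of its FPKM over the median FPKM of the 8 libraries, with NOS1 left out because of its zeros. Blue cells lie below the median and red cells above. TH1 is blue for ECE1 (-2.15), PDE5A (-1.81), GUCY1A3 (-1.77) and EDNRB (-1.46), and YL2 is the lowest library for EDN1, EDNRA, NOS3 and GUCY1B3.

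The lowest values of the tested members fell on 3 libraries. TH1 was the lowest library for ECE1, EDNRB and GUCY1A3, and YL2 for EDN1, EDNRA, NOS3 and GUCY1B3. YL1 was the lowest for NOS2. Over all genes tested TH1 was the lowest library for 25.8%, YL2 for 22.5% and YL1 for 11.1%. The members did not go down together in TH1, where EDNRA, EDN1 and NOS2 were slightly above their medians.

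Each comparison was tested in 1 limma fit of all 8 libraries on log2(FPKM + 1), and a gene was called at a Benjamini-Hochberg adjusted p under 0.01 and more than 2-fold change. None of the 8 tested members was called in any of the 7 comparisons. The whole table had few calls as well, 0.0336% of the genes tested in TH to YH, 0.00839% in TL to YL, 0.0504% in TH to TL and 0% in YH to YL. The averaged contrasts called 0.0504% for breed and 0.0336% for altitude, and the interaction called 0.0336%. At an unadjusted p under 0.05, 4 of the 56 member results stood out. These were NOS2 and GUCY1B3 in TL to YL, GUCY1B3 in YH to YL and GUCY1B3 in the interaction. The same threshold took in 8.94% of all genes tested in TL to YL, 5.97% in YH to YL and 10.9% in the interaction. It took in 16.2% in TH to YH, 11.3% in TH to TL, 13.5% for breed and 7.22% for altitude, where no member was among them. A count test on recovered reads, edgeR, called 0 genes of 13695 in every comparison, and DESeq2 called 74 to 286, none of them a member. An exact permutation test of 2 libraries against 2 cannot give a two-sided p below 0.333.

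The width of the intervals on log2(FPKM + 1) shows what these libraries can resolve. For a pairwise comparison the 95% interval reached from 0.60 log2 units (GUCY1B3) to 1.38 (ECE1) on either side of the estimate. For ECE1 a change of 1 on this scale was inside the interval in all 4 pairwise comparisons. For genes near 1 FPKM a change of this size stands for more than 2-fold in FPKM.

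**Figure D3:**
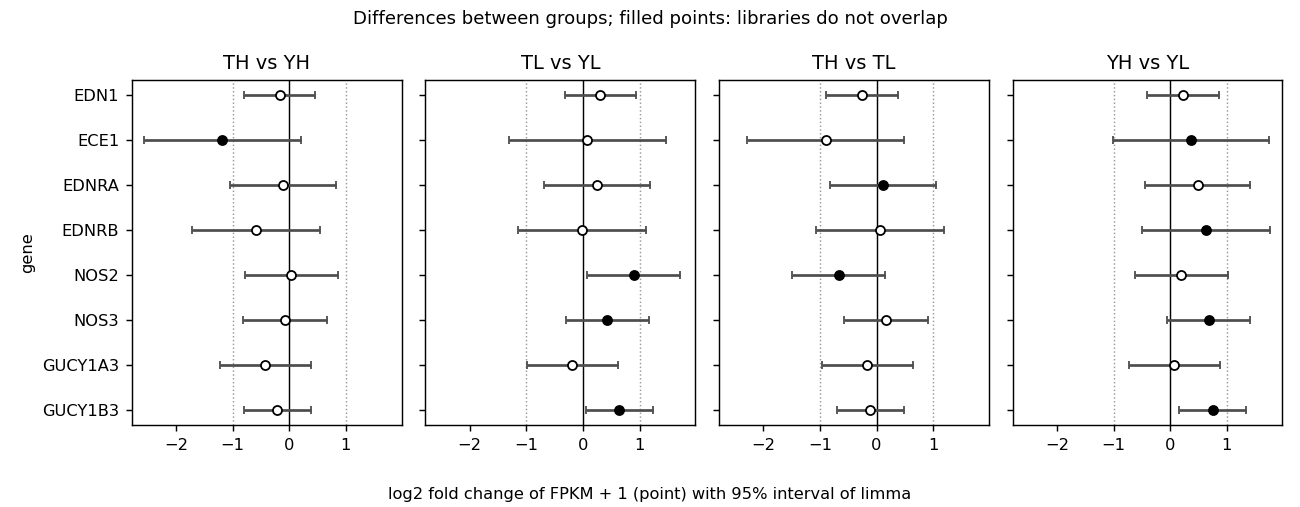
Log2 fold change of FPKM + 1 of the 8 tested members in the 4 pairwise comparisons, with the 95% interval of the limma fit. Filled points mark genes with groups that do not overlap in any library, and dotted lines mark 2-fold of FPKM + 1. The interval leaves out 0 for NOS2 and GUCY1B3 in TL to YL and for GUCY1B3 in YH to YL, before any adjustment.

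Between breeds at high altitude, TH to YH, 7 of the 8 members had a lower fitted level in TH and NOS2 a value of 0.03 (-0.04 without TH1). Their median log2 fold change was -0.19 and that of all genes tested -0.03. ECE1 alone had libraries that do not overlap, against 52.5% of all genes tested. Without TH1 the split was 4 higher and 4 lower and the median -0.02, and without TH2 the median was -0.47. Under each of the 3 other scalings of the libraries NOS2 was lower in TH too.

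Between breeds at low altitude, TL to YL, 6 members had a higher fitted level in TL, with EDNRB at -0.01 (-0.20 without YL2) and GUCY1A3 at -0.18 (0.11 without YL2). The count of higher members was 5 under median-ratio scaling, 4 at an equal FPKM sum and 7 when that sum left out the mitochondrial genes. The median was 0.28 against 0.02 over all genes tested, and 0.12 against 0.05 without YL2, 0.56 without YL1 and 0.01 against -0.23 at an equal FPKM sum. NOS2, NOS3 and GUCY1B3 had libraries that do not overlap, all higher in TL, and this held for 41.5% of all genes tested.

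Between altitudes in the Tibetan breed, TH to TL, the members ranged from -0.90 (ECE1, 0.12 without TH1) to 0.17 (NOS3, 0.54 without TH1). Of the 8, 3 were higher and 5 lower in TH, with a median of -0.14. Without TH1, the lowest library of ECE1, 6 were higher and 2 lower (median 0.14), and without TH2 1 was higher and 7 were lower (median -0.49). At an equal FPKM sum, with or without the mitochondrial genes, 1 was higher and 7 were lower. EDNRA and NOS2 had libraries that do not overlap, EDNRA higher in TH by a log2 fold change of 0.11 (0.03 without TH1) and NOS2 lower, beside 48.5% of all genes tested.

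Between altitudes in the Yorkshire breed, YH to YL, all 8 members had a higher fitted level in YH, from 0.07 (GUCY1A3, 0.36 without YL2) to 0.75 (GUCY1B3). Their median of 0.42 compares with 0.03 over all genes tested, of which 54.0% had a higher fitted level in YH. ECE1, EDNRB, NOS3 and GUCY1B3 had libraries that do not overlap, against 36.3% of all genes tested. Leaving out either YL library left 6 of the 8 higher, with a median of 0.44 without YL2 and 0.64 without YL1, and scaling each library to an equal FPKM sum, with or without the mitochondrial genes, left 7. The interaction was below 0 for all 8 members, from -1.26 for ECE1 to -0.24 for GUCY1A3, and for 6 of them without TH1. Without TH1 it was -0.25 for ECE1 and 0.19 for GUCY1A3, and without YL2 it was -0.53 for GUCY1A3. These 2 comparisons share the YH and YL libraries and are not independent.

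The summed endothelial markers were also lowest in YL. The 10 markers summed to 155.8 and 140.8 FPKM in YL1 and YL2 and to between 210.1 and 249.4 FPKM in the other 6 libraries, and none of them was at 0 in any library. Gene by gene they did not move alike. Both YL libraries were below the other 6 for 4 of the 10, PECAM1, CLDN5, ROBO4 and ERG, and the lowest library was TH1 for 5 of them, such as VWF at 1.07 FPKM there against 10.4 and 6.42 FPKM in YL. Both YL libraries were also below the other 6 for 3 of the 6 pericyte markers and for 4 of 5 blood markers, genes of red cells such as those for globin chains. The blood markers summed to 634.9 and 527.5 FPKM in YL1 and YL2 and to between 1033 and 3115 FPKM in the others. On FPKM, NOS3 and GUCY1B3 are the members whose YL libraries were both below the other 6. This was so for 4.93% of all genes tested. With scaled reads in place of FPKM, NOS3 was at 408.5 in YL1 and 392.6 in TH1 and lost this order, whereas GUCY1B3 kept it. Summed FPKM was 8.56e+06 in TH1 and 1.56e+06 in YL2. At an equal FPKM sum, with or without the mitochondrial genes, YL2 lay above TH1 for both genes. Expressed as a share of the endothelial sum, a description chosen after the values were seen, NOS3 was 2.49% and 2.21% in YL1 and YL2 and 2.39% and 3.26% in YH1 and YH2, so that the groups overlapped. GUCY1B3 was 3.40% and 3.39% in YL and 4.28% and 4.002% in YH on the same scale, and did not overlap. TH1 and TL2, at 2.68% and 3.16%, lay below both. As a share of the pericyte sum GUCY1B3 was 3.30% and 7.41% in YL and 4.59% and 5.16% in YH, and the groups overlapped. As a share of 7 summed smooth muscle markers it was 1.29% and 1.63% in YL and 2.75% and 2.17% in YH, and they did not overlap. On that scale TH1, at 0.896%, lay below both YL libraries and TH2 and TL2, at 1.53% and 1.54%, between them. MYL9 made up most of this sum in YL, at 282.4 of 410.7 FPKM in YL1 and 179.1 of 291.6 FPKM in YL2. It was at 150.7 and 205.4 FPKM in YH1 and YH2. Both YL libraries were below the other 6 for 2 of the 7 smooth muscle markers, ACTA2 and TAGLN. In bulk tissue fewer cells of a type and less RNA per cell cannot be told apart. The part of the endothelial, pericyte, smooth muscle and blood markers in these values was not tested.

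**Figure D4:**
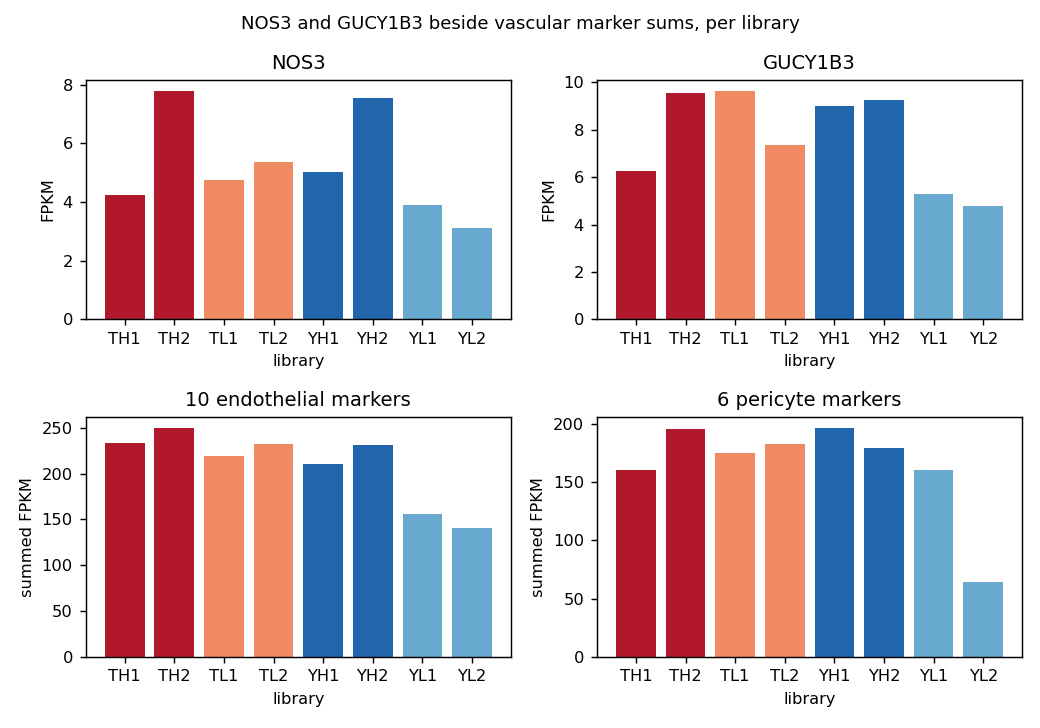
FPKM of NOS3 and GUCY1B3 and summed FPKM of 10 endothelial and 6 pericyte markers, with 1 bar per library coloured by group. NOS3, GUCY1B3 and the endothelial sum are lowest in YL1 and YL2, and the pericyte sum is lowest in YL2, at 64.3 FPKM.

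The neighbours of these genes in the pathway were taken from lists of 66 genes, of which 55 were in the table and 39 were tested. None was called in the 4 pairwise comparisons by the main test. At an unadjusted p under 0.05, 1 was higher and 4 were lower in TH than in YH, 6 higher and 1 lower in TL than in YL, 2 higher and 1 lower in TH than in TL, and 2 higher and 1 lower in YH than in YL. Over all genes tested the shares at this threshold, in both directions, were 16.2%, 8.94%, 11.3% and 5.97%. Their median log2 fold changes were 0.07, 0.04, -0.05 and 0.03, beside -0.03, 0.02, -0.02 and 0.03 over all genes tested.

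Among the other endothelin peptides and peptidases, MME, the neprilysin that degrades endothelin, was the only one tested. It was at 160.5 FPKM in YL2 and at 0.447 to 5.10 FPKM in the other libraries, and YL2 is the library with the kidney markers. EDN3, ECE2 and KEL stayed at 0.518 FPKM or less. Of the 13 listed genes of G protein signals downstream of endothelin receptors, 11 were tested. GNA12, an alpha subunit of the G12/13 class, and GNA11, one of the Gq class, had the highest means, 17.4 and 14.3 FPKM, and GNA11 was within 13.3 and 16.0 FPKM in every library.

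Of the partners and regulators of the synthases, 6 were tested. The chaperone HSP90AA1 and the caveolar protein CAV1, which binds NOS3, were the most abundant at means of 406.5 and 144.3 FPKM. CAV1 was at 112.0 and 44.9 FPKM in YL1 and YL2 and at 138.2 to 196.2 FPKM elsewhere, with a log2 fold change of 1.30 ± 0.43 in TL to YL (adjusted p = 0.435) and 1.11 ± 0.43 in YH to YL (adjusted p = 0.784), which were 0.65 and 0.46 without YL2. All 6 had a higher fitted level in YH than in YL, with a median of 0.35, and 5 did under median-ratio scaling and 3 without YL2. PTS and SPR, of the synthesis of the cofactor tetrahydrobiopterin, had means of 53.6 and 35.5 FPKM, and SPR was lower in TH, at 26.5 and 28.2 FPKM, than in all other libraries, at 34.4 to 41.8 FPKM (log2 fold change of TH to TL -0.54 ± 0.19, adjusted p = 0.360).

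Arginine is both the substrate of the synthases and that of arginase. PRMT1, which methylates arginine residues in proteins, had a mean of 107.4 FPKM. ASS1, which starts the rebuilding of arginine from citrulline, was at 648.3 FPKM in YL2, the library with the kidney markers, and 3.84 to 8.78 FPKM elsewhere. The mitochondrial arginase ARG2, named here after its values were seen, was at 21.7 and 20.6 FPKM in YL1 and YL2, 16.0 and 11.9 FPKM in TH1 and TH2, 6.65 and 8.49 FPKM in TL1 and TL2, and 9.34 and 9.45 FPKM in YH1 and YH2. Both YL libraries were the highest of the 8, and the TL to YL difference was as large without YL2, at -1.42. Its log2 fold change was -1.38 ± 0.22 in TL to YL (limma adjusted p = 0.160), the smallest adjusted p of the lists, and -1.09 ± 0.22 in YH to YL (adjusted p = 0.582). On recovered reads the adjusted p of TL to YL was 0.187 in edgeR and 0.00175 in DESeq2.

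Downstream of cyclic GMP, 4 of 7 listed kinase and target genes were tested. The myosin phosphatase subunits PPP1R12A and PPP1R12B had means of 20.5 and 15.9 FPKM and differed in TH1, where PPP1R12A was highest, at 48.8 FPKM, and PPP1R12B lowest, at 5.29 FPKM. All 4 had a higher fitted level in TL and in YH than in YL, with medians of 0.74 and 0.60, and 3 did without YL2 (medians 0.43 and 0.29) or, for YH to YL, under median-ratio scaling. In the list of other phosphodiesterases PDE6D and PDE3B had the highest means, 16.8 and 9.53 FPKM. PDE6D encodes a prenyl-binding subunit that does not itself break down cyclic GMP, and was at 34.1 FPKM in TH1 and 11.0 to 17.2 FPKM elsewhere. GUCY1A2, the only other cyclase subunit listed, stayed at 0.435 FPKM or less.

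The genes whose profile over the 8 libraries was most like that of a member were found by Pearson correlation of log2(FPKM + 1) over all genes tested, and are given as a description with no test. ECE1 was closest to TIMP3 (r = 0.991) and LSM14A (r = 0.986), NOS3 to DYSF (0.983) and ECM1 (0.982), and EDNRB to CBLL1 (0.973) and ANO10 (0.969). GUCY1B3 was closest to BARD1 (0.976) and C2ORF49 (0.971), EDN1 to CHD7 (0.974) and C21orf33 (0.965), and NOS2 to CEP78 (0.969) and NCCRP1 (0.922). GUCY1A3 was closest to an unnamed gene, ENSSSCG00000029479 (0.994), and VPS54 (0.983). For EDNRA the values of MRPL44 (0.967) and FXR2 (0.965) dropped to 0.837 and 0.781 over the 7 libraries without YL2, whereas those of the other pairs stayed at 0.930 or above. Without TH1 the values of ECE1 dropped to 0.855 (TIMP3) and 0.819 (LSM14A). Among the members themselves ECE1 and GUCY1A3 were most alike (0.845, and 0.428 without TH1), followed by NOS3 and GUCY1B3 (0.819). The last pair was at 0.714 without YL2 and 0.809 without TH1.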

How the data were processed

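RNA-seq of pig heart was analysed from 8 libraries, 2 for each of 4 groups, with groups and replicate numbers taken from the sample titles. The authors aligned reads to Sscrofa10.2 with TopHat2 2.0.9 and Bowtie 0.12.5, computed FPKM with Cufflinks and tested genes with DESeq 1.10.1, as their methods and processing notes state. The deposited table gives FPKM and a second value per library, a scaled read signal. Dividing this deposited signal by 1 factor per library gave whole reads, within 0.05 reads, for 99.8% to 99.9% of the low values, and these recovered reads were used for depth and for edgeR 4.0.16 and DESeq2 1.42.0. FPKM and reads did not scale alike for every gene, and 74.6% of the genes with at least 20 reads in every library kept a FPKM per read within a factor of 1.25. Another 8 columns of group means and ratios were not used. Descriptions of YL1 and YL2 name a file of TL, and title and breed were followed.

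The main test was limma 3.58.1 in R 4.3.3, with trend, on log2(FPKM + 1) for the 11913 genes that reached 1 FPKM in 2 or more libraries. The added 1 makes the fold changes of low genes too small. The averaged contrasts compare breeds over altitudes and altitudes over breeds. Intervals use 6.83 degrees of freedom. Tables and figures were made with Python 3.11.15, pandas 2.3.3, scipy 1.17.1 and matplotlib 3.10.9. Scripts were tested on simulated data. No source says that pools of a group came from separate farms or days, so p-values measure the spread between these pools.

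The members, whose rule uses only gene names, and the lists of pathway genes and markers were chosen with earlier results of these data known. Genes of a pathway list were named by the highest mean FPKM, 2 per list, and the genes most like a member by correlation, 2 per member. ARG2 and the genes named with the limits below were chosen after their values were seen. Symbols listed more than once were read from the row with the highest mean. The alternatives were another pseudocount (0.1 FPKM), no filter, a mean of at least 10 FPKM, 3 scalings, no trend, a replicate block, only the libraries compared, other thresholds, both count tests and each library left out in turn.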

Additional observations from a re-analysis of the deposited data

How the results depend on the processing

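No member was called in any comparison under any alternative, which were a pseudocount of 0.1 FPKM, no filter or a mean of at least 10 FPKM (2 members left), 3 scalings, no trend, the libraries compared alone, edgeR, DESeq2, other thresholds and each library left out in turn. The fit with the replicate block also called 0 members, and the correlations of the libraries' deviations between groups, -0.08 to 0.12, do not pair libraries by number. The smallest adjusted p of a member in any of them was 0.0419, for ECE1 in TH to YH without TH2, with TH1 as the sole TH library. Of the 56 member results 34 change sign in at least 1 alternative, and the largest of these is ECE1 in TH to TL at -0.90.

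Of the values printed in the report, the EDNRA difference of YH to YL was -0.12 without YL2 and went up to 1.09 without YL1, and the GUCY1A3 difference of TH to YH was 0.0066 without TH1 and -0.85 without TH2. GUCY1B3 in YH to YL ranged from 0.62 to 0.85 and in TL to YL from 0.26 to 0.82, NOS2 in TL to YL from 0.34 to 1.33, NOS3 in YH to YL from 0.43 to 1.02, and EDNRB in YH to YL from 0.34 to 0.93. Scaling to an equal FPKM sum moved the median of all genes by -0.47 in TH to YH and -0.24 in TL to YL, and the NOS2 and GUCY1B3 differences of TL to YL were then 0.34 and 0.26.

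Settings for 2 counts were chosen after seeing the data. The count of tested members whose libraries do not overlap was 1 in TH to YH, and 3 with median-ratio scaling, 2 with an equal FPKM sum and 2 with scaled reads. In TL to YL it was 3, and 0 with an equal FPKM sum. In TH to TL it was 2, and 1 with scaled reads. In YH to YL it was 4, and 2 with an equal FPKM sum and 1 with that sum outside the mitochondrial genome. With a library left out, which eases separation by leaving a group of 1, these counts went from 3 to 7 in TH to YH, 4 to 6 in TL to YL, 3 to 7 in TH to TL and 4 to 8 in YH to YL. Shares of all genes without overlap are given above for the main setting only, so the counts under other settings cannot be weighed against them. Pathway genes called in a pairwise comparison were 0, and 2 with an equal FPKM sum (ASS1, MME). They were 4 in DESeq2 (ARG2, DDAH1, AGXT2, PDE2A) and 4 past 2-fold at an unadjusted p under 0.01. The genes named for the equal FPKM sum and DESeq2 were called in TL to YL, where calls over all genes rose too. These were 1 of 11913 in the main fit, 97 with an equal FPKM sum and 236 of 13695 in DESeq2. Without YL1, where YL2 is the sole library of YL, log2 fold changes of YH to YL were -6.24 for ASS1 and -4.98 for MME. Those of ASL and QDPR were -2.80 and -1.998.

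Depth limits NOS1 and PDE5A, and then EDN1, EDNRB and GUCY1A3, with fewer than 200 reads in every library.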
